A study of Mus musculus with 4 samples.

Results

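The circular RNAs (circRNAs) of 10 genes of the Smad and bone morphogenetic protein (BMP) and activin receptor pathway were examined in cartilage cells (chondrocytes) grown from mouse joints. A circRNA was taken as a member when both ends of its back-splice junction lay inside the mm10 RefSeq span of one of the genes, with a tolerance of 1 bp. This gave 86 of the 40909 circRNAs in the series, from 10 of its 6929 host genes, and 24519 of its 4278181 junction reads (0.573%). In 2 libraries the cells had received recombinant human interleukin-1β (IL-1β), an inflammatory cytokine, for 24 h at 10 ng/ml, and 2 libraries came from control cells, told apart by their source label. The cells of all 4 libraries were at passage 1 to 3, and their RNA was depleted of ribosomal RNA and digested with RNase R, an enzyme that degrades linear RNA. The labels give no strain, age or number of animals, and do not state whether the libraries within a group are separate cultures. The p-values therefore reflect the spread among these libraries alone, and it may be technical.

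BMPs and activins are secreted ligands that bind pairs of cell-surface kinases. A type II receptor (Bmpr2, Acvr2a) phosphorylates a type I receptor (Bmpr1a, Acvr1), which phosphorylates receptor-regulated Smad proteins in the cytoplasm. Smad1, Smad5 and Smad9 carry BMP signals, Smad2 and Smad3 carry activin and TGF-β signals, and both sets join the common partner Smad4 and enter the nucleus. In cartilage the BMP branch is known for chondrocyte formation and maturation, and Smad3 for holding back terminal differentiation. A circRNA of such a gene is a closed loop made when a downstream splice donor joins an upstream acceptor, and its reads do not measure the linear messenger RNA or the protein.

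Depth was 895774 and 980542 junction reads under IL-1β against 1198010 and 1203855 in control cells. A count of 0 allowed up to 3 reads, which is 3.30 and 3.07 CPM (normalised junction reads per 1000000) under IL-1β against 2.57 and 2.46 CPM in control cells, by counting error alone, because PCR copies are not separate molecules. Of 11 chondrocyte marker genes 3 had junction reads (Sox5, Sox6 and Hapln1), and Col2a1, Acan and Sox9 had 0 in every library. Of 5 fibroblast markers 4 had reads, of 4 macrophage markers 0, of 3 endothelial markers 1 and of 2 smooth muscle markers 1. The chondrocyte list summed to 265 and 320 CPM under IL-1β against 402 and 237 CPM in control cells, and the fibroblast list to 87.3 and 65.7 CPM under IL-1β against 140 and 206 CPM in control cells. A gene can be expressed without giving circRNAs, so the label of the cells could not be checked well with these reads.

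The circRNAs differed in how they lay along their genes. In mm10 the Smad genes span chr8:79338395-79399428 (Smad1), chr18:76241090-76311748 (Smad2), chr9:63646766-63757994 (Smad3), chr18:73634790-73703791 (Smad4), chr13:56703010-56742378 (Smad5) and chr3:54755455-54801662 (Smad9). The receptor genes span chr14:34411061-34503336 (Bmpr1a), chr2:58446438-58566828 (Acvr1), chr1:59764279-59878081 (Bmpr2) and chr2:48814109-48903264 (Acvr2a). Smad1, Smad3, Smad4, Bmpr1a and Acvr1 lie on the minus strand, where the higher coordinate is the 5′ end of a circle, and the others on the plus strand. Acvr1 had 21 circRNAs, Bmpr1a 15, Smad2 and Smad4 12 each, Acvr2a 8, Smad1 6, Bmpr2 5, Smad9 3, and Smad3 and Smad5 2 each, against a median of 3 per host gene over 6929 hosts. Their genomic spans, with both listed ends included, had a median of 15308 bp and ran from 356 to 78989 bp, against a median of 10570 bp over all circRNAs. Of the 86, 25 were read in all 4 libraries (29.1%, against 16.8% of all circRNAs) and 37 in a single library (43%, against 58.6%). Splice sites were shared: in Smad4 the 5′ end at chr18:73678039 began 4 of 12 circRNAs and 89.97% of the gene's reads, and in Smad1 the 5′ end at chr8:79372364 began 3 of 6 circRNAs and 93.6% of reads. Over 2208 hosts with at least 200 reads the most used 5′ end began a median of 70.5% of reads. In Acvr1 the reads were spread more widely, with 50.3% from the 5′ end at chr2:58479928 (5 circRNAs) and 32.2% from chr2:58537873 (6 circRNAs).

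**Figure D1:**
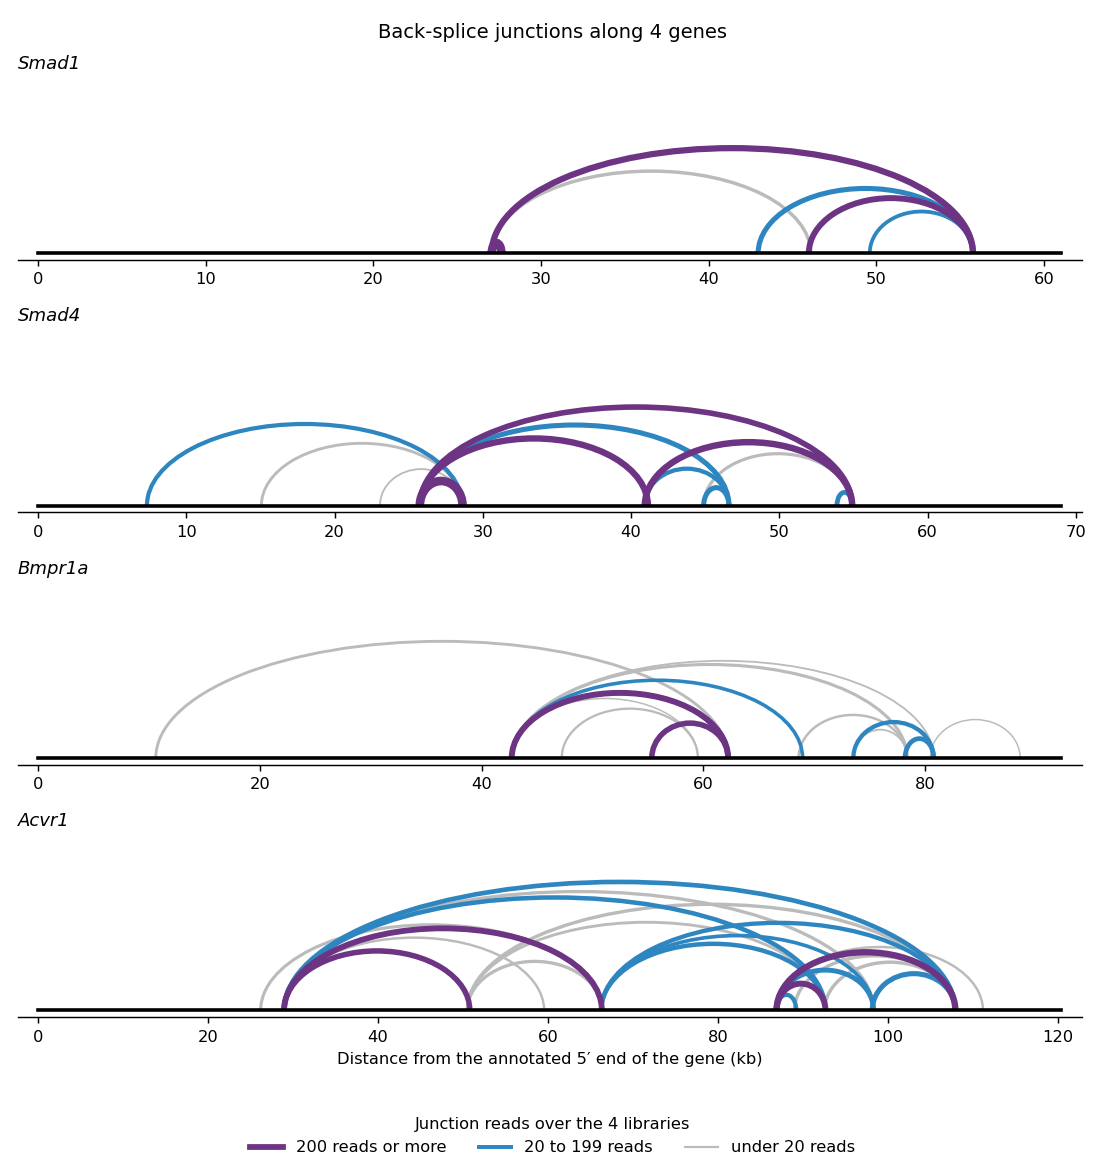
Back-splice junctions drawn as arcs along 4 genes, with distance from the annotated 5′ end of the gene in kb on the horizontal axis. Each arc joins the 2 ends of a circRNA, its colour and width show the junction reads over the 4 libraries, and arc height grows with span and has no unit. In Smad1 and Smad4 a single arc holds most of the reads, and in Acvr1 the reads are spread over 21 arcs.

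The first comparison was of the level of each gene's circRNA output, the sum of its junction reads. Each read crosses a junction, so the sum does not grow with the length of the circle. Smad4 and Smad1 were the highest of the 10 genes, ranking 54th and 74th of 6929 hosts and holding 71.2% of the members' reads together. The order by mean CPM was Smad4, Smad1, Acvr2a, Acvr1, Smad2, Bmpr1a, Smad3, Bmpr2, Smad5 and Smad9. Smad4 and Smad1 overlapped in their ranges over the libraries, as did Acvr2a and Acvr1, Smad2 and Bmpr1a, and each neighbouring pair from Smad3 downwards. Of the 10 genes 8 were read in all 4 libraries (50.1% of hosts were), 1, Smad5, in a single library (23.5%), 0 in both IL-1β libraries and neither control (2.28%) and 0 the other way (2.68%). The ranges of Smad1 and Acvr2a, of Acvr1 and Smad2, and of Bmpr1a and Smad3 did not overlap. In whole cultures, fewer cells of a type and less RNA per cell cannot be told apart.

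**Figure D2:**
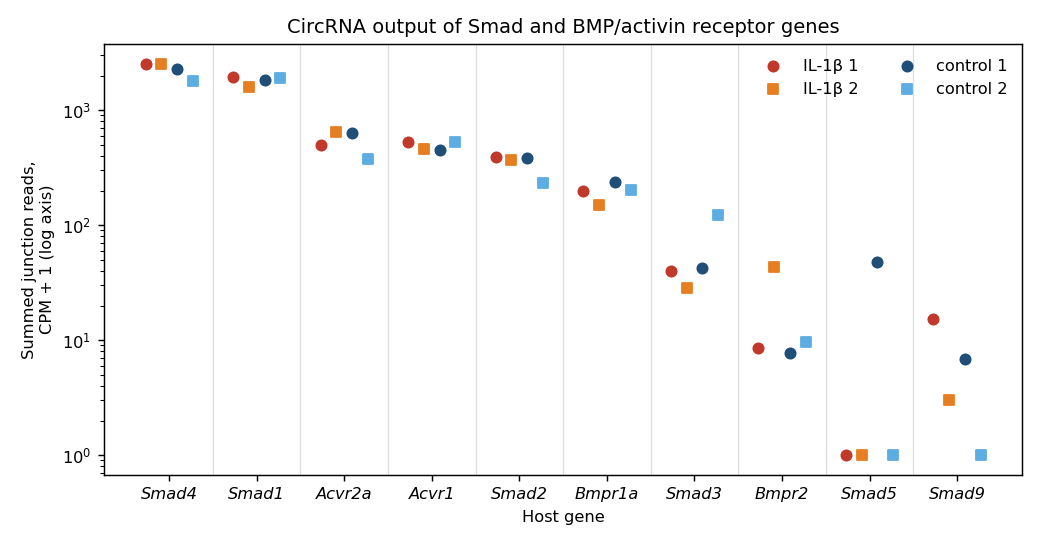
Summed junction reads of each gene in CPM plus 1, on a log axis, with a point for each of the 4 libraries. Smad4 and Smad1 lie highest in every library, and the points of Smad3, Bmpr2, Smad5 and Smad9 are spread widely.

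The second comparison was IL-1β against control. Means below are over the 2 libraries of a group, with their SD, and each log2 change is given with its SE. All 10 genes reached the minimum of 20 reads. By edgeR's quasi-likelihood method 0 of them had an adjusted p under the threshold of 0.05 (0% of 4878 hosts did, in either direction). At an unadjusted p under 0.05 there were 0 as well, against 4.55% of the 4878 hosts. DESeq2 gave an adjusted p to 8 of the 10, all but Smad5 and Smad9, and called 0 of the 8 at 0.05, against 1.47% of the 3743 hosts given one. Smad5 alone had an unadjusted p under 0.05 in DESeq2, and the share of all hosts under that p was not counted there. The log2 changes were positive for 6 genes (47.9% of hosts) and negative for 4 (52.1%), with a median of 0.10 against -0.03 over all tested hosts. In CPM both IL-1β libraries lay above both controls in 1 gene, Smad4 (16.9% of hosts did so), and below both in 2, Smad3 and Bmpr1a (18.9% of hosts). These counts are near the shares over all hosts. Log2 changes are relative to the bulk of hosts: scaling by the depth behind the authors' SRPBM moved the median over all hosts to -0.24, and under it Acvr1 and Acvr2a turned negative.

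Among the BMP-regulated Smads, the output of Smad1 did not differ between groups beyond the spread between libraries. It had 1775 and 1584 reads under IL-1β against 2171 and 2223 in control cells, or 1769 ± 237 CPM under IL-1β and 1859 ± 63.8 CPM in control cells. The log2 change was -0.07 ± 0.18, and the groups overlapped. Smad1 reads came mostly from a single short circle, circRNA.37797 (chr8:79371784-79372364, minus strand, 581 bp), with 1501 and 1429 reads under IL-1β against 1872 and 1948 in control cells. That is 1557 ± 131 CPM under IL-1β and 1598 ± 5.55 CPM in control cells, a log2 change of -0.04 ± 0.20. The next circles share ends with each other or with the leading one. The longer, circRNA.37795 (chr8:79343654-79372364), had 156 and 69 reads under IL-1β against 97 and 162 in control cells, and circRNA.37793 (chr8:79343654-79353446) had 81 and 33 under IL-1β against 155 and 73 in control cells. In both circles the libraries of a group differed by more than the groups did.

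Smad5 and Smad9, the other BMP-regulated Smads, gave few circRNA reads. Smad5 had 0 reads in the IL-1β libraries and in control 2, and 56 reads in control 1, of which 45 came from circRNA.7676 (chr13:56723429-56736056) and 11 from circRNA.7675 (chr13:56723429-56728629). All of its reads are therefore from a single control library. Smad9, known in mouse also as Smad8, had 13 and 2 reads under IL-1β against 7 and 0 in control cells. Its leading circle, circRNA.24856 (chr3:54786064-54789407), had 10 and 0 reads under IL-1β against 4 and 0 in control cells. The other Smad9 circles, circRNA.24854 and circRNA.24855, had 6 and 2 reads in all. Neither gene passed the test, with an unadjusted p of 0.0611 for Smad5 and 0.643 for Smad9 in edgeR.

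Of the activin and TGF-β branch, Smad2 was spread over many circles and Smad3 over few. Smad2 had 357 and 363 reads under IL-1β against 461 and 268 in control cells, or 378 ± 15.98 CPM under IL-1β and 307 ± 110 CPM in control cells, with a log2 change of 0.30 ± 0.30. The controls differed from each other by 1.68-fold, more than the 1.23-fold between group means. Its leading circle, circRNA.15761 (chr18:76262440-76304776), had 83 and 133 reads under IL-1β against 171 and 69 in control cells, and circRNA.15766 (chr18:76286860-76304776) had 71 and 99 under IL-1β against 71 and 93 in control cells. In CPM both IL-1β libraries lay above both controls for circRNA.15766, with 89.8 ± 16.6 CPM under IL-1β and 68.5 ± 10.9 CPM in control cells. They did so narrowly, with IL-1β 1 at 78.0 CPM and control 2 at 76.1 CPM. The log2 change of 0.39 ± 0.41 did not exceed the spread between libraries (unadjusted p = 0.372, edgeR). The circle circRNA.15760 (chr18:76262440-76292984) had 126 and 81 reads under IL-1β against 113 and 0 in control cells, so it was missing from control 2 while abundant in the other control.

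A pair of Smad2 circles had reads in each control and none under IL-1β. The longer, circRNA.15762 (chr18:76262445-76304776), had 39 and 29 reads in the controls. Its control mean was 8.96-fold a floor of 3 reads per library under IL-1β, a ratio that leaves out the spread between libraries. In edgeR this circle had an unadjusted p of 0.0177 and an adjusted p of 0.886. Its 5′ end lies 5 nt from that of circRNA.15761, and the summed reads of both junctions had a log2 change of -0.19 ± 0.48 (unadjusted p = 0.703, edgeR), so neither the fold nor the low p holds for the sum. The other, circRNA.15767 (chr18:76292910-76302527), had none under IL-1β against 16 and 18 in control cells. Its control mean was 4.46-fold the same floor, with an unadjusted p of 0.0948 (adjusted p = 0.886, edgeR). Reads in both controls and none under IL-1β were found for 2.72% of all circRNAs, and 2 of the 86 (2.33%) is near that share. The opposite pattern was found in 0 of the 86, against 2.45% of all circRNAs.

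Smad3 had 36 and 27 reads under IL-1β against 50 and 142 in control cells, or 33.3 ± 8.48 CPM under IL-1β and 81.7 ± 56.5 CPM in control cells. Both IL-1β libraries lay below both controls, and the log2 change was -1.29 ± 0.66 with an unadjusted p of 0.0853 (adjusted p = 0.882, edgeR). Without control 2 the change was -0.34. The difference came largely from circRNA.39808 (chr9:63666148-63667922), which had 90 reads in control 2 and 0 in the other 3 libraries. The other Smad3 circle, circRNA.39807 (chr9:63663665-63667922), shares its 5′ end and had 36 and 27 reads under IL-1β against 50 and 52 in control cells, a log2 change of -0.34 ± 0.61. Of 2685 circRNAs that had 90 or more reads in some library, 38 were read in that library only. The fibroblast marker sum was also highest in control 2, where Col1a2 gave 131 reads against 48 in control 1. Col1a1 (49 against 42) and Col3a1 (12 against 5) were higher there too, but Pdgfra was lower (49 against 72) and Dcn had no reads. The part of these markers in the Smad3 value was not tested.

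Smad4, the common partner, was the gene with the most reads and the only member whose IL-1β libraries both lay above both controls in CPM. It had 2332 and 2504 reads under IL-1β against 2757 and 2101 in control cells. After scaling these were 2537 ± 9.49 CPM under IL-1β and 2052 ± 356 CPM in control cells, 1.24-fold higher under IL-1β, and the controls differed from each other by 1.28-fold. The log2 change was 0.31 ± 0.19 with an unadjusted p of 0.137 (adjusted p = 0.882, edgeR), so it did not exceed the spread between libraries. It was 0.12 without control 2, 0.54 without control 1, and 0.07 with the SRPBM depth.

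The circles of Smad4 had log2 changes of either sign. Its leading circle, circRNA.15708 (chr18:73675161-73678039, minus strand), had 1911 and 2076 reads under IL-1β against 2185 and 1630 in control cells, or 2114 ± 19.3 CPM under IL-1β and 1602 ± 379 CPM in control cells, a log2 change of 0.40 ± 0.23. Lower values under IL-1β were recorded for a pair of long circles, without overlap of the groups in the first and with overlap in the next: circRNA.15702 (chr18:73648885-73662867) stood at 126 ± 5.04 CPM under IL-1β and 169 ± 23.1 CPM in control cells, and circRNA.15707 (chr18:73662658-73678039) at 122 ± 10.5 CPM under IL-1β and 140 ± 25.1 CPM in control cells. Higher values were seen for circRNA.15703 (chr18:73648885-73678039), which joins the outer ends of those, with 67 and 74 reads under IL-1β against 56 and 33 in control cells. The same held for circRNA.15704 (chr18:73657195-73658898), with 47 and 52 reads under IL-1β against 23 and 0 in control cells. The unadjusted p was 0.103 or more for each of these 5 circles in edgeR, and 5 of the 9 tested Smad4 circles had a positive log2 change.

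**Figure D3:**
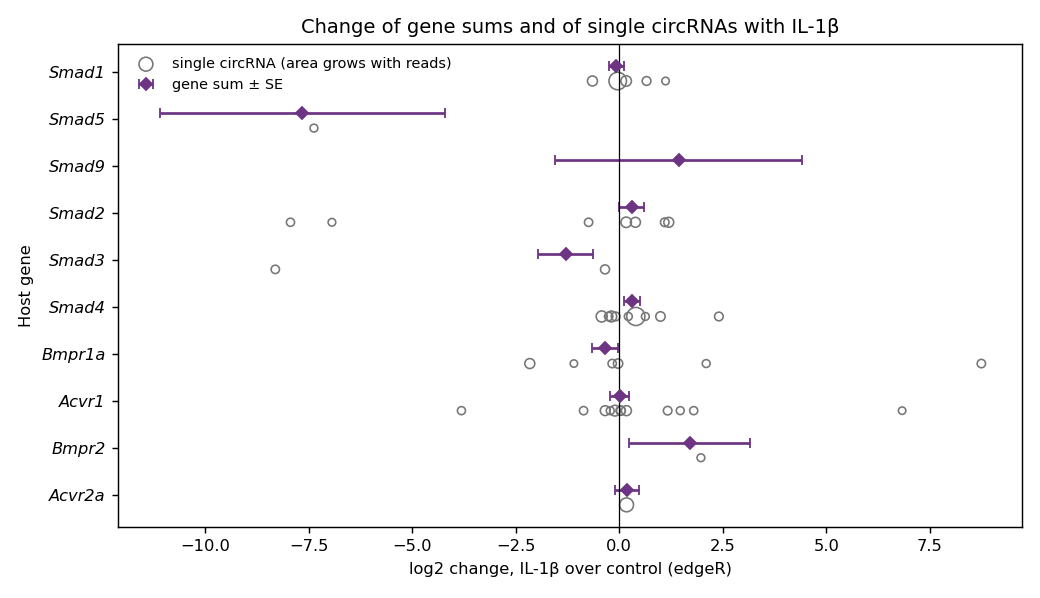
Log2 change under IL-1β over control from edgeR, for each gene sum (diamonds, with the SE) and for each of its tested circRNAs (circles). Gene sums with many reads lie near 0, and each point beyond 5 in either direction has a group at 0, so its fitted size depends on the prior count.

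Of the type I receptors, Bmpr1a, a receptor for BMPs needed in cartilage development, had 180 and 147 reads under IL-1β against 283 and 236 in control cells. These were 172 ± 33.8 CPM under IL-1β and 219 ± 24.3 CPM in control cells, 1.27-fold lower under IL-1β and without overlap of the groups. The log2 change of -0.35 ± 0.31 did not exceed the spread between libraries (unadjusted p = 0.293, edgeR). Its circle circRNA.8872 (chr14:34441099-34447978) had 54 and 38 reads under IL-1β against 53 and 67 in control cells, a log2 change of -0.03 ± 0.53. Of the 15 Bmpr1a circRNAs 10 were read in a single library.

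The leading Bmpr1a circle, circRNA.8873, and circRNA.8874 share the 3′ end at chr14:34441099 and have 5′ ends 3 nt apart. The junction with its 5′ end at 34460612, circRNA.8873, had 0 and 52 reads under IL-1β against 166 and 120 in control cells. The junction with its 5′ end at 34460615, circRNA.8874, had 91 and 0 reads under IL-1β against 0 in both controls, and its unadjusted p was 0.0397 in edgeR (adjusted p = 0.886). It passed the adjusted threshold only when no minimum of reads was set, among the alternatives tried. No library held both. Summed, they had 91 and 52 reads under IL-1β against 166 and 120 in control cells, a log2 change of -0.65 ± 0.45 with an unadjusted p of 0.198 (adjusted p = 0.894). Over all circRNAs that begin there, the end at 34460612 carried 0 and 54 reads under IL-1β against 166 and 123 in control cells, and the end at 34460615 carried 91 and 6 under IL-1β against 22 and 7 in control cells. IL-1β 2 and both controls thus had reads at both ends, and IL-1β 1 at 34460615 only. The caller's handling of such close ends is not given in the sources used here, and its part in these values was not tested. Smad2 had the other such pair: circRNA.15761 and circRNA.15762 summed to 83 and 133 reads under IL-1β against 210 and 98 in control cells. Across the series 573 circRNAs had a neighbour within 5 nt at both ends.

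**Figure D4:**
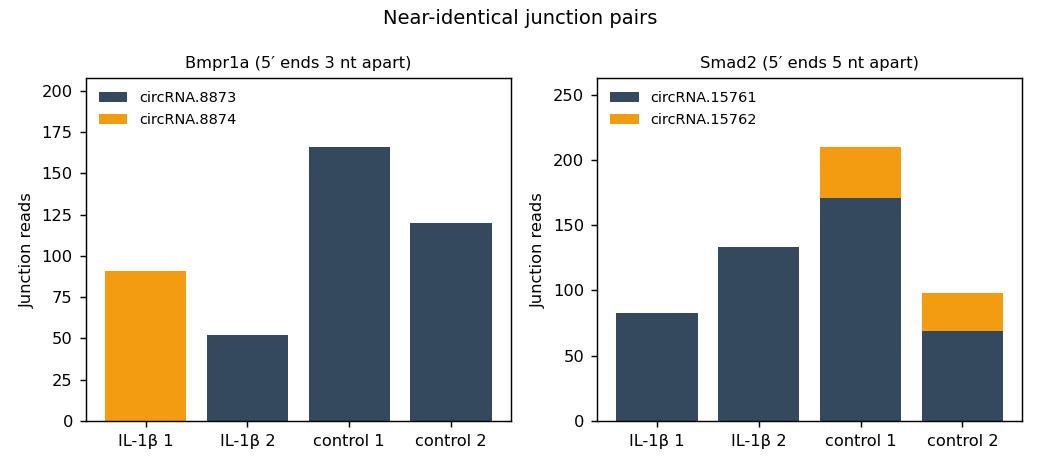
Junction reads of the near-identical pairs of Bmpr1a and Smad2 in each library, stacked by junction. In Bmpr1a the reads of IL-1β 1 belong to circRNA.8874 and those of the other 3 libraries to circRNA.8873.

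Acvr1, the type I receptor mutated in human fibrodysplasia ossificans progressiva, had the most circRNAs of the 10 genes. It had 483 and 452 reads under IL-1β against 543 and 613 in control cells, or 492 ± 49.6 CPM under IL-1β and 489 ± 50.5 CPM in control cells, with a log2 change of 0.01 ± 0.23. The groups overlapped. Its 3 leading circles also overlapped between groups: circRNA.23328 (chr2:58458885-58479928) had 127 and 105 reads under IL-1β against 136 and 182 in control cells. For circRNA.23335 (chr2:58474173-58479928) the reads were 74 and 85 under IL-1β against 77 and 102 in control cells, and for circRNA.23342 (chr2:58500484-58537873) 51 and 65 under IL-1β against 106 and 79 in control cells. Of 12 tested Acvr1 circles 7 had a positive log2 change and 5 a negative one.

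The Acvr1 circles circRNA.23332, circRNA.23336 and circRNA.23333, with fewer reads, were among the members with the lowest p. None passed the test (adjusted p = 0.886 for each in edgeR). The circle circRNA.23332 (chr2:58468514-58479928) had 27 and 41 reads under IL-1β against 18 and 20 in control cells, 35.9 ± 8.73 CPM under IL-1β and 15.9 ± 0.681 CPM in control cells. Lower values were recorded for circRNA.23336 (chr2:58474173-58500557), with 3 and 0 reads under IL-1β against 17 and 42 in control cells. All 24 reads of circRNA.23333 (chr2:58468514-58500557) came from IL-1β 1.

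Of the type II receptors, Acvr2a, which binds activins and BMPs, was ahead of Bmpr2. Acvr2a had 458 and 637 reads under IL-1β against 755 and 436 in control cells, or 572 ± 102 CPM under IL-1β and 502 ± 182 CPM in control cells, a log2 change of 0.19 ± 0.30. The controls differed by 1.69-fold and the group means by 1.14-fold. Nearly all came from circRNA.23225 (chr2:48870289-48873473, plus strand), with 451 and 602 reads under IL-1β against 744 and 425 in control cells. The next circles, circRNA.23218 and circRNA.23224, had 12 reads in IL-1β 2 alone and 11 reads in control 2 alone. Bmpr2, the BMP type II receptor, had 7 and 42 reads under IL-1β against 8 and 10 in control cells, and none of its 5 circles was read in every library. Its leading circle circRNA.19641 (chr1:59842743-59852441) had 0 and 32 reads under IL-1β against 0 and 10 in control cells. The other Bmpr2 circles named, circRNA.19640 and circRNA.19639, had 8 reads in control 1 alone and 7 in IL-1β 1 alone.

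At the level of single circRNAs, 44 of the 86 had at least 20 reads and were tested, and these held 98.4% of the members' reads. By the same edgeR method 0 had an adjusted p under 0.05, against 0.0196% of the 15333 circRNAs tested. That is 0.00652% with higher and 0.013% with lower values under IL-1β. At an unadjusted p under 0.05 there was 1 higher, circRNA.8874 of Bmpr1a (1.83% of all tested were), and 1 lower, circRNA.15762 of Smad2 (1.62%), together 4.55% of the 44 against 3.44%. DESeq2 gave an adjusted p to 37 of the 44 and called 0 of the 37 at 0.05, against 1.21% of the 8793 circRNAs given one. In DESeq2 4 of the 44 had an unadjusted p under 0.05. The share of all circRNAs that did was not counted, so no excess can be read from it. Of the 44, 23 had a positive log2 change (48.3% of all tested did) and 21 a negative one (51.7%), with a median of 0.04 against -0.05. Both IL-1β libraries lay above both controls for 8 (16.4% of all tested) and below for 6 (17.2%). The 2 circles with an unadjusted p under 0.05 in edgeR are also the minor partners in the near-identical pairs of Bmpr1a and Smad2.

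The third comparison was of how the reads of a gene were divided among its circles, which does not depend on how libraries are scaled. Over all libraries the leading circle held 97.2% of the reads of Acvr2a, 87.1% of Smad1 and 80.5% of Smad4, but 39.95% of Bmpr1a, 31.5% of Smad2 and 26.3% of Acvr1. The median was 54.9% over the 2208 hosts with at least 200 reads. In Smad4 the share was 81.9% (Wilson 95% interval 80.3 to 83.5) and 82.9% (81.4 to 84.3) under IL-1β against 79.3% (77.7 to 80.7) and 77.6% (75.7 to 79.3) in control cells. The difference of group means was 4.01 percentage points, and the groups did not overlap. With 2 libraries against 2, an exact permutation test cannot give a two-sided p under 0.333, so no test is given for shares.

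Of the 7 members with at least 200 reads and reads in every library, Smad4 was the only one whose leading share was higher in both IL-1β libraries than in both controls (17.7% of 2199 such hosts), and Bmpr1a the only one with it lower (16.2%). In Bmpr1a the share of circRNA.8873 was 0% and 35.4% under IL-1β against 58.7% and 50.8% in control cells. With its near-identical partner added it was 50.6% and 35.4% under IL-1β against 58.7% and 50.8% in control cells, with the higher IL-1β library almost level with the lower control. In Smad1 the leading share was 84.6% and 90.2% under IL-1β against 86.2% and 87.6% in control cells. In Acvr1 it was 26.3% and 23.2% under IL-1β against 25.0% and 29.7% in control cells, and in Acvr2a 98.5% and 94.5% under IL-1β against 98.5% and 97.5% in control cells. In Smad2 it was 23.2% and 36.6% under IL-1β against 37.1% and 25.7% in control cells, and in Smad3 circRNA.39807 held 100% in each library but control 2, where it held 36.6%. These groups overlapped. With the near-identical partner circRNA.15762 added, the Smad2 share was 23.2% and 36.6% under IL-1β against 45.6% and 36.6% in control cells. The difference of group means was then -11.1 percentage points, against -1.48 for circRNA.15761 alone, and the groups overlapped only where an IL-1β library and control 2 stood almost level.

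**Figure D5:**
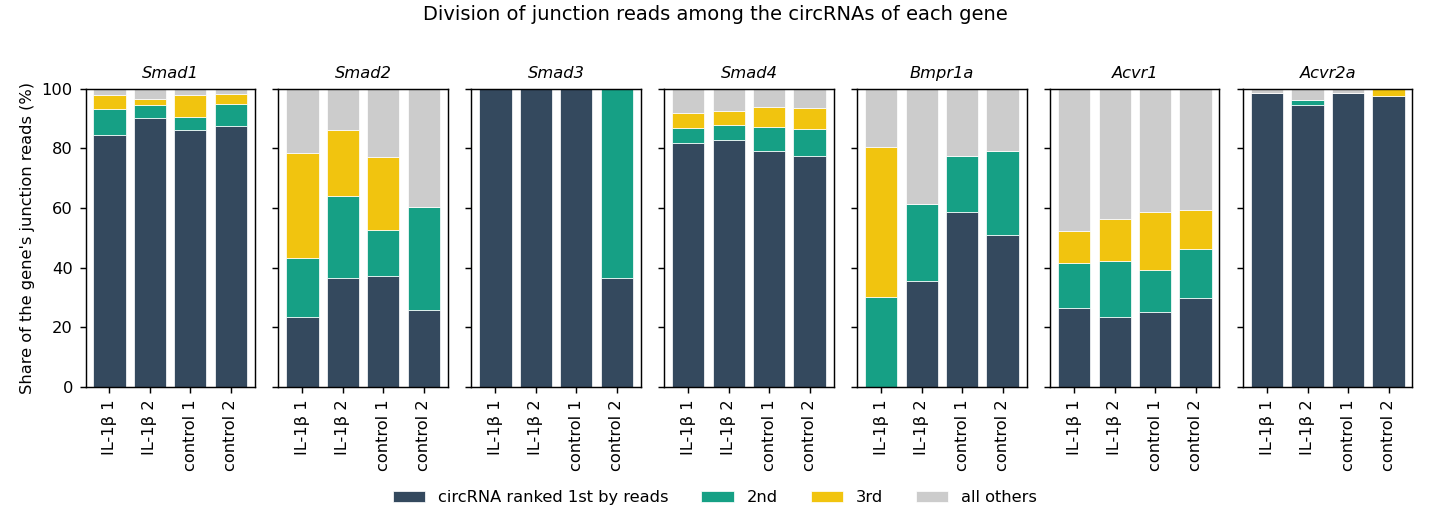
Share of each gene's junction reads, in percent, held by its 3 circRNAs with the most reads and by all others, for the 7 genes with at least 200 reads and each library. Smad1, Smad4 and Acvr2a are dominated by a single circle in every library, and circRNA.39808 appears as the second circle of Smad3 in control 2 alone.

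The rest of the pathway was read from a list of 74 other genes of ligands, receptors, antagonists, Smad regulators, nuclear partners and targets. Of these, 36 had junction reads, 31 were tested and 0 passed edgeR's test at an adjusted p under 0.05. At an unadjusted p under 0.05, 3 had higher and 2 had lower values under IL-1β (2.09% and 2.46% of all hosts), and the log2 changes were positive in 15 and negative in 16, with a median of -0.09. None of the 11 ligand genes had a junction read in any library. Of 10 other receptors and co-receptors 3 were tested. All had negative log2 changes, as did 52.1% of hosts, and in each the groups overlapped (unadjusted p of 0.139 or more, edgeR). Neo1, a co-receptor that binds repulsive guidance molecules, stood at 294 ± 8.47 CPM under IL-1β against 463 ± 282 CPM in control cells. Acvr1b, an activin type I receptor, gave 53.9 ± 13.3 CPM under IL-1β and 78.9 ± 28.9 CPM in control cells. Rgmb, a BMP co-receptor, had 14 and 0 reads under IL-1β against 18 and 33 in control cells.

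Among antagonists, Crim1, a membrane protein that binds BMPs, stood at 1962 ± 143 CPM under IL-1β against 1460 ± 40.7 CPM in control cells (unadjusted p = 0.0416, adjusted p = 0.882, edgeR). Bmper, a secreted BMP modulator, gave 174 ± 116 CPM under IL-1β and 217 ± 150 CPM in control cells, and Chrdl1, a chordin relative, had 2 and 0 reads under IL-1β against 19 and 12 in control cells. Of the Smad enzymes, the ubiquitin ligase gene Rnf111 gave 487 ± 62.0 CPM under IL-1β and 626 ± 128 CPM in control cells, Smurf2 489 ± 120 CPM under IL-1β and 469 ± 109 CPM in control cells, and Trim33 391 ± 69.4 CPM under IL-1β and 275 ± 26.3 CPM in control cells. None of these differences passed the test.

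Among anchors and nuclear partners, the repressor gene Zeb1 stood at 3083 ± 117 CPM under IL-1β against 3010 ± 52.4 CPM in control cells, and Runx2, a skeletal transcription factor, 365 ± 1.93 CPM under IL-1β and 353 ± 120 CPM in control cells. The coactivator genes stood on opposite sides: Crebbp gave 682 ± 22.5 CPM under IL-1β and 482 ± 32.8 CPM in control cells, and Ep300 233 ± 93.5 CPM under IL-1β and 449 ± 46.5 CPM in control cells (unadjusted p = 0.0454 and 0.0176, adjusted p = 0.882 for each, edgeR). In the non-Smad branch Map3k7, the TAK1 kinase gene, gave 43.7 ± 7.56 CPM under IL-1β and 52.8 ± 14.0 CPM in control cells. Its adaptor gene Tab2 and Limk1, a kinase gene that binds the Bmpr2 tail, had 39 and 38 reads over all libraries. Of 8 direct target genes, Id3 alone was tested, with 0 and 3 reads under IL-1β against 9 and 22 in control cells, and Id4 had 6 reads in control 1 alone. Ep300, Usp9x and Lemd3 were named for their unadjusted p after the values were seen. Usp9x, a deubiquitinase that acts on Smad4, gave 110 ± 27.5 CPM under IL-1β and 22.8 ± 5.58 CPM in control cells (unadjusted p = 0.00271, adjusted p = 0.882, edgeR). Lemd3, an inner nuclear membrane Smad binder, gave 4.24 ± 1.71 CPM under IL-1β and 36.6 ± 19.1 CPM in control cells (unadjusted p = 0.0371, adjusted p = 0.882, edgeR). It had 5 and 3 reads under IL-1β against 60 and 27 in control cells. Its IL-1β counts thus lie near the floor of 3 reads.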

How the data were processed

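Back-splice junction reads were measured in 2 IL-1β and 2 control libraries of mouse chondrocytes. Groups follow the source label, because the treatment text is identical for all samples. Per the submitters' processing notes, reads were handled with Bowtie2 and genome mm10. What called and filtered the circRNAs is not given in the sources used here. Per the file headers, the deposited tables hold for each circRNA the counts of junction reads and an SRPBM signal, which the authors had scaled to depth. SRPBM served only as another measure of depth. The single-library tables held the same counts as the series table.

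Junction ends are printed as deposited. Whether starts count from 0 or 1 is not stated. Host genes came from RefSeq spans of GRCm38.p6 (the assembly of mm10) with a tolerance of 1 bp, counting circRNAs inside exactly 1 coding gene, or failing that 1 other gene. No exon positions were used.

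Counts of all circRNAs, and of reads summed per host, were tested in edgeR 4.0.16 under R 4.3.3 by quasi-likelihood, with TMM factors and without covariates (at least 20 reads over the libraries, Benjamini-Hochberg adjustment at 0.05 over the whole table). CPM used the factors of each table, so circle and host values differ slightly in scale. The SE of a log2 change is its size over the square root of F. DESeq2 1.42.0 was the other test. Its adjusted p-values are missing for some features, which stay out of its counts of calls. Intervals of shares are Wilson 95% intervals (scipy 1.17.1, Python 3.11.15) and cover counting error only.

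The members, gene lists and alternatives were chosen with earlier results of these data known. Named circRNAs were the 3 with the most reads in each gene and the 6 tested in each direction with the lowest unadjusted p. Listed pathway genes were up to 3 with the most reads in each role. Ep300, Usp9x and Lemd3 were added for their unadjusted p after the values were seen.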

Additional observations from a re-analysis of the deposited data

How the results depend on the processing

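The members' log2 changes were recomputed with RLE factors, library totals, SRPBM depth, other read filters, DESeq2, a replicate block, each library left out, near-identical junctions summed and, for genes, no tolerance at gene ends. No member gene passed an adjusted p of 0.05 in any of them, though DESeq2 gave Smad5 and Smad9 none. Member circRNAs past it numbered 1 with no read filter (circRNA.8874) and 2 with the replicate block (circRNA.8873 and circRNA.15760, each at 0 in a single library). The groups share only a replicate number, and over 2208 hosts the deviations of same-numbered libraries correlated at 0.03, so the block is not taken as a pairing. The next counts are from settings that kept all 4 libraries. Member circRNAs with an unadjusted p under 0.05 numbered 1 with a filter of 50 reads, 7 with none, 6 with the block, 4 in DESeq2 and 0 with junctions summed. Member genes with one numbered 1 with SRPBM depth, 1 with no filter and 1 in DESeq2. With a library left out both counts also moved, for genes further than here. Those counts are not given, because a lone library shows no spread. The shares of all circRNAs and hosts were not counted under these settings, so no excess among the members can be read from these counts. Under SRPBM depth log2 changes turned to -0.18 for Acvr1, -0.083 for Acvr2a, -0.036 for circRNA.23335, -0.11 for circRNA.23225, -0.0070 for circRNA.37795 and -0.15 for circRNA.15761, which was -0.19 with junctions summed. With a library left out the sign changed for Acvr1 (-0.10 to 0.11), Acvr2a (-0.16 to 0.65), Smad1 (-0.22 to 0.061), Smad2 (-0.044 to 0.76), circRNA.15761 (-0.36 to 0.98), circRNA.23225 (-0.19 to 0.65), circRNA.23328 (-0.33 to 0.086), circRNA.23335 (-0.016 to 0.35), circRNA.37793 (-1.52 to 0.010), circRNA.37795 (-0.63 to 0.64), circRNA.37797 (-0.15 to 0.023) and circRNA.8872 (-0.39 to 0.22). The median over member genes ran from -0.13 (SRPBM depth) to 0.24 (without control 1). A fit with a library left out takes the lone library of its group to vary like the other group. The cause of these shifts was not tested.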
